A study of Homo sapiens with 15 samples.

Results

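Cells keep their genome whole during DNA copying with a set of proteins that find stalled forks, hold back division and rebuild broken DNA. The transcripts of 35 such genes, of 20375 genes in the expression table, are described here in Molm-13 cells given cytarabine and then FL-Fc-DM1. They were chosen by gene symbol from a list of homologous recombination, Fanconi anaemia and replication checkpoint genes. No measured value is part of the rule, but the list was drawn up with earlier results of these data known. All 35 were found and all 35 passed the filter on low counts that left 12355 genes for testing. The smallest count of any of them in a library was 72.

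Molm-13 is an established line of human acute myeloid leukaemia cells that carries an internal tandem duplication in the receptor gene FLT3. Poly(A) RNA was sequenced in 5 groups of 3 libraries, to see how FL-Fc-DM1 changes the transcriptome after cytarabine. Control cells grew for 4 days without drug. The cytarabine groups received 0.5 µM or 1 µM of this nucleoside analogue, which is built into DNA and blocks its copying, for all 4 days. The FL-Fc-DM1 groups received 0.5 µM or 1 µM cytarabine for 3 days and then 1 nM FL-Fc-DM1, an agent that the labels do not spell out, for 24 h with cytarabine removed. FL-Fc-DM1 was therefore compared with cells that stayed in cytarabine, and the effect of the agent and that of removing cytarabine cannot be told apart. The treatment protocol names THP-1 cells for the FL-Fc-DM1 groups where the titles, the cell line field and the design text name Molm-13, and these libraries are called Molm-13 as titled.

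When a replication fork stalls, single-stranded DNA recruits the kinase ATR through ATRIP, and TOPBP1, claspin (CLSPN), TIMELESS and TIPIN help it switch on the kinase CHEK1, which slows entry into division. Broken DNA ends instead call the MRE11-RAD50-NBN complex and the kinase ATM, which acts on CHEK2. The ends are then trimmed and paired with an intact copy by BRCA1, BRCA2 and their partners, while the Fanconi pathway marks the FANCD2-FANCI clamp with ubiquitin where strands are crosslinked or forks are blocked.

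Total counts ran from 10858017 to 16965626 per library, and levels are given as counts per 1000000 counts (CPM) on TMM-scaled library sizes. Replicates of each group differed by more than sampling noise, and the labels do not say that they came from separate cultures, so p-values measure only the spread between these libraries, which may be technical. The 8 myeloid markers were all detected, and their summed level ran from 979.1 to 1010 CPM in control, from 7525 to 9904 CPM in cytarabine and from 14230 to 16700 CPM after FL-Fc-DM1. FLT3 and lysozyme (LYZ) were the highest of them in control, at 395.3 and 379 CPM on average, and most of the sum in the treated groups was LYZ. The markers did not all move with the sum. MPO went from 20.6 CPM on average in control to 5.7 and 3.9 CPM in 0.5 µM and 1 µM cytarabine. FLT3 was at 587 and 541 CPM in cytarabine and at 386 and 323 CPM where FL-Fc-DM1 followed these doses. The part of these marker changes in the results below was not tested. The 3 erythroid markers summed to at most 0.176 CPM and the 3 B-cell markers to at most 1.19 CPM. The 3 epithelial and stromal markers summed to between 0.0617 and 0.529 CPM in control and between 0.749 and 2.56 CPM in the treated groups. EPCAM was at 0 in every library, and KRT8 went from 0.245 CPM on average in control to 1.06 and 1.72 CPM in 0.5 µM and 1 µM cytarabine. The 4 T and NK markers summed to between 29.6 and 68.3 CPM, nearly all of it NKG7 and CD3D, with CD2 at 0 or at most 0.142 CPM.

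In untreated cells the 35 genes differed widely in level. Per transcript length, as transcripts per 1000000 transcripts (TPM, mean ± SD, n = 3), NBN, the sensor subunit of the break-end complex, stood highest at 127 ± 5.04. FANCI at 58.8 ± 2.56, RBBP8 at 58.1 ± 4.74 and RAD50 at 55.7 ± 2.36 followed, within their spread of each other. The lowest was FANCB, a subunit of the Fanconi core complex, at 5.16 ± 0.181 TPM. Added over all 35 genes, the level was 947 ± 24.9 TPM in control, 632 ± 9.60 TPM in 0.5 µM cytarabine and 624 ± 4.59 TPM in 1 µM cytarabine. It was 597 ± 19.4 TPM where FL-Fc-DM1 followed the lower dose and 693 ± 26.6 TPM where it followed the higher dose. In CPM the summed level was 2085 ± 31.7 in control, 1576.5 ± 15.8 in 0.5 µM cytarabine and 1572 ± 18.0 in 1 µM cytarabine. With FL-Fc-DM1 it was 1486 ± 15.1 CPM after the lower dose and 1589 ± 65.1 CPM after the higher dose. The gap between FL-Fc-DM1 and 1 µM cytarabine seen in TPM thus lay within the spread in CPM. ATM, the highest of the 35 genes in CPM in both groups, moved against most of the others. It went from 488, 485 and 477 CPM in 1 µM cytarabine to 377, 374 and 349 CPM with FL-Fc-DM1. Without ATM and CHEK2 the TPM sum was 532 ± 4.60 in 1 µM cytarabine and 614 ± 17.45 where FL-Fc-DM1 followed. It was 540 ± 8.87 in 0.5 µM cytarabine and 522 ± 18.3 where FL-Fc-DM1 followed. ATM moved from the seventh highest TPM of the 35 genes in control to the second highest in each of the other 4 groups.

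Cytarabine lowered most of these transcripts. At 0.5 µM 31 of the 35 genes fell and 2 rose against control, where 35.2% of all genes tested fell and 38.0% rose (edgeR quasi-likelihood test, Benjamini-Hochberg adjusted p under 0.05). At 1 µM 32 fell and 2 rose, where 36.6% of all genes fell and 39.3% rose. The median log2 change of the 35 genes was -0.64 at 0.5 µM and -0.75 at 1 µM, beside medians of 0.03 at each dose over all genes tested. At least 2-fold falls were seen in 6 of the 35 genes at 0.5 µM, beside 6.47% of all genes, and in 8 at 1 µM, beside 7.73%. Both comparisons use the same 3 control libraries, so their results are not independent. Values are relative to the total of each library, and fewer cells that express a gene and less of its RNA per cell cannot be told apart in these bulk samples.

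**Figure D1:**
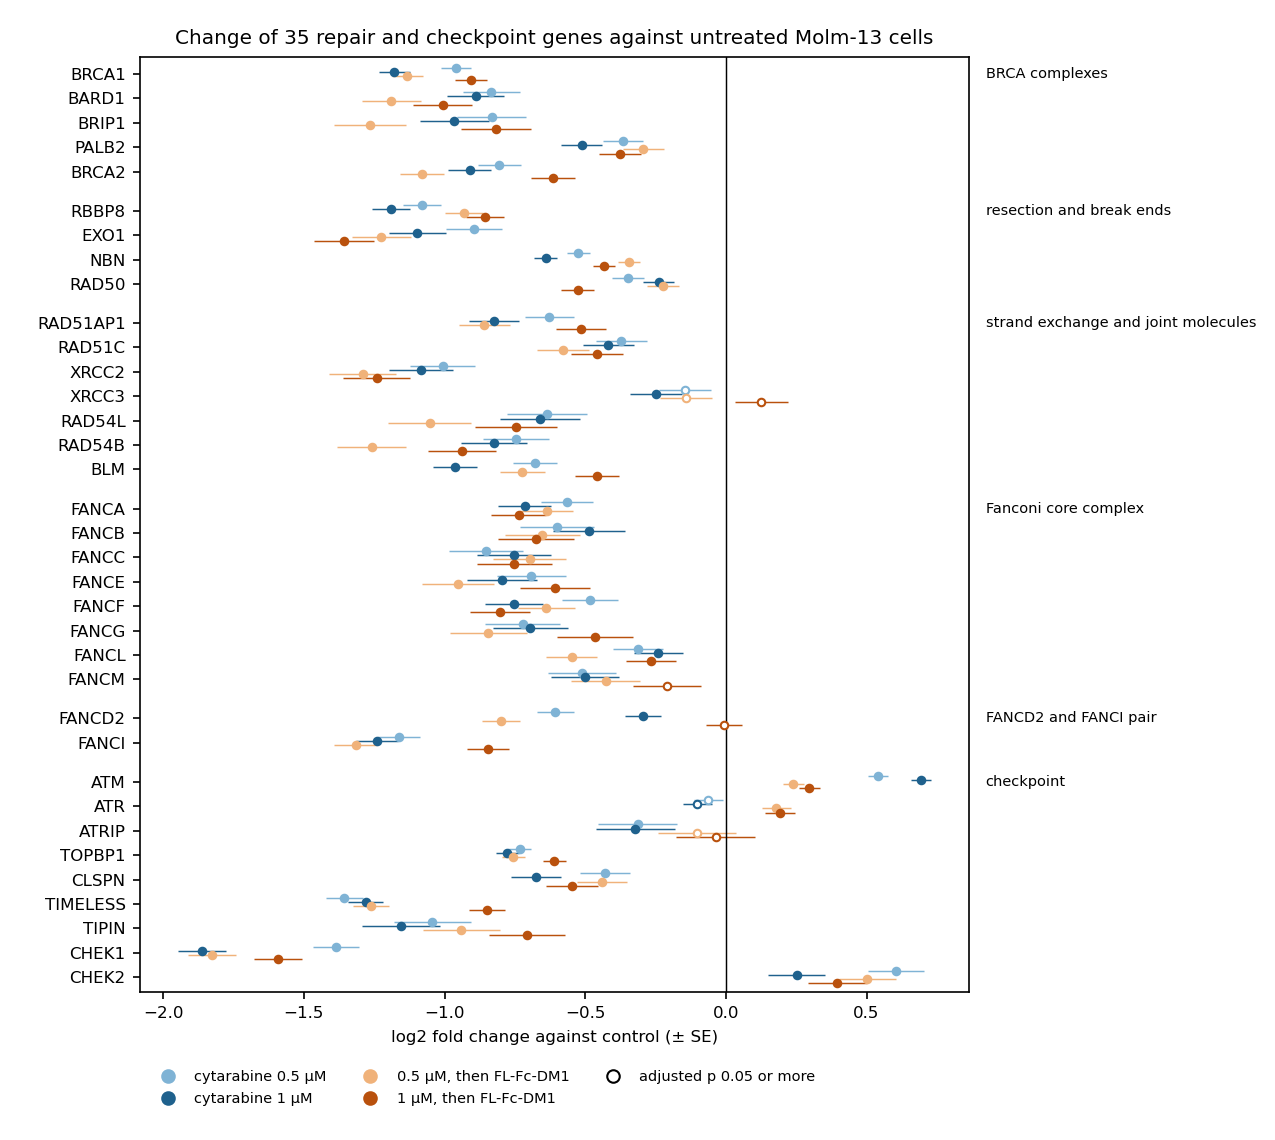
The horizontal axis is the log2 fold change against the 3 control libraries for each of the 35 genes (rows, grouped by role), with bars of 1 standard error. Filled circles had an adjusted p under 0.05 and open circles did not. Most points lie left of 0, with CHEK1 farthest left (-1.39 and -1.86 in cytarabine), ATM and CHEK2 right of 0 in all 4 treated groups, and FANCD2 at -0.01 where FL-Fc-DM1 followed 1 µM cytarabine.

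Most of the genes with a promoter entry hold E2F-type letters near their start, which the choice of the list did not use. E2F factors, which switch genes on as cells enter DNA replication, recognise short sites, and the letters TTCCCGC or TTGGCGC or TTCGCGC or TTGCCGC were searched on both strands from 250 bases before to 50 bases after each RefSeq start (GRCh38.p14). A match lay in 20 of the 32 genes with a promoter entry (62.5%), beside 15.3% of the promoters of 27305 genes. Among genes of the replication machinery 80% of 30 promoters held one, and among mitotic genes 23.5% of 17. The cell cycle homology letters TTTGAA and TTCGAA lay in 3 of the 32 promoters (9.38%), beside 19.5% of the 27305 genes and 70.6% of the mitotic genes. CCAAT lay in 17 (53.1%), beside 39.7% of the 27305 genes. CHEK1, which fell most under cytarabine, and ATM, ATR and CHEK2, which rose or were not called, were among the 12 genes without an E2F-type match, with PALB2, BRCA2, RBBP8, RAD50, RAD51C, FANCB, FANCM and ATRIP. At 0.5 µM cytarabine the median log2 change was -0.71 over the 20 genes with a match and -0.37 over the 12 without, and at 1 µM it was -0.79 and -0.45. The sets overlapped widely, from -1.36 to -0.15 with a match and from -1.39 to 0.60 without at 0.5 µM, and from -1.28 to -0.24 and from -1.86 to 0.69 at 1 µM. With FL-Fc-DM1 against continued cytarabine the medians were -0.16 with and 0.01 without a match after 0.5 µM, and 0.16 and 0.21 after 1 µM. CCAAT read on the other strand and TTGGCGC can share bases, and none overlapped in the stretches printed. A match in these letters is a description and not a measured site of binding. To show promoters of genes that fell with a match (RAD54L, BLM, FANCC), of a gene that fell without one (CHEK1) and of a gene that was not called (ATR), the nearest 100 bases upstream of each start that hold no annotated exon (GENCODE) are printed from 5′ to 3′ on the gene's strand, with E2F-type and CCAAT matches, on either strand, in capitals. Counted from the start, the stretch ends at base -1 for RAD54L, FANCC and CHEK1, at base -20 for BLM and at base -94 for ATR.
RAD54L, chr1:46247588-46247687, plus strand: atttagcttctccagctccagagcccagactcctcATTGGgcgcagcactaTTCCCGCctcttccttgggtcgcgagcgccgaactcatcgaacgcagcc
BLM, chr15:90717227-90717326, plus strand: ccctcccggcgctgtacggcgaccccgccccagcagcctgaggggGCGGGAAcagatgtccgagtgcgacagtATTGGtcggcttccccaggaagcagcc
FANCC, chr9:95317710-95317809, minus strand: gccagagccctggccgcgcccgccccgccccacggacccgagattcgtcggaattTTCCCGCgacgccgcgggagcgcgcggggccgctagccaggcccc
CHEK1, chr11:125626129-125626228, plus strand: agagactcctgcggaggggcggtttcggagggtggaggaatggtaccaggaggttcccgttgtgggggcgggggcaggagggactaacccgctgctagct
ATR, chr3:142578827-142578926, minus strand: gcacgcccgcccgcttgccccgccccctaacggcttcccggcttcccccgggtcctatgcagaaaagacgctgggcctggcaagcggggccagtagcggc

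Among the checkpoint genes the effector kinases moved in opposite directions. CHEK1, the kinase that restrains division when forks stall, stood at 45.4, 46.1 and 44.8 CPM in the control libraries, at 17.8, 16.3 and 18.0 CPM in 0.5 µM cytarabine and at 12.0, 12.2 and 13.3 CPM in 1 µM. The groups did not overlap, and the higher dose held the lowest levels. CHEK1 fell 2.62-fold at 0.5 µM (log2 -1.39 ± 0.082 SE, edgeR adjusted p = 3.46e-14) and 3.64-fold at 1 µM (log2 -1.86 ± 0.085, edgeR adjusted p = 1.34e-16). CHEK2, the kinase that ATM acts on, was at 17.0, 15.0 and 14.0 CPM in control, 22.4, 24.4 and 23.1 CPM in 0.5 µM and 17.6, 20.0 and 17.3 CPM in 1 µM. Every cytarabine library was above every control library, and the higher dose lay between the other groups. CHEK2 rose by log2 0.60 ± 0.10 at 0.5 µM (edgeR adjusted p = 6.87e-06) and by log2 0.25 ± 0.10 at 1 µM (edgeR adjusted p = 0.03). The call at 1 µM was lost under 12 alternatives, 8 of which left out 1 library. Without control replicate 3 or 1 µM replicate 2 the edgeR adjusted p was 0.188 or 0.203 (log2 0.17 and 0.16). It was 0.0979 without control replicate 2, and it lay between 0.0525 and 0.0595 without 0.5 µM replicate 2 or 3, 1 µM replicate 1 or FL-Fc-DM1 replicate 2 or 3 after 0.5 µM. With limma on log2(TPM + 1) it was 0.619. The ratio of CHEK2 to CHEK1 in TPM was 0.535 ± 0.0369 in control, 2.10 ± 0.227 in 0.5 µM and 2.17 ± 0.594 in 1 µM cytarabine.

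ATM, the kinase activated by DNA breaks, was at 308, 297 and 291 CPM in control. It reached 438, 419.9 and 446 CPM in 0.5 µM and 488, 485 and 477 CPM in 1 µM, with no overlap between any of the 3 groups. These are rises of 1.45-fold (log2 0.54 ± 0.037, edgeR adjusted p = 6.15e-13) and 1.62-fold (log2 0.69 ± 0.036, edgeR adjusted p = 2.5e-15). ATM overlaps the gene C11orf65, and no source used here says whether the counting used strand. ATR, the kinase of stalled forks, was not called at either dose, at log2 -0.06 (95% interval -0.18 to 0.05) and -0.10 (-0.22 to 0.01). Its partner ATRIP fell, at log2 -0.31 ± 0.14 (edgeR adjusted p = 0.0483) and -0.32 ± 0.14 (edgeR adjusted p = 0.0403), close to the threshold. Without control replicate 1 or 3 neither ATRIP call held (edgeR adjusted p = 0.151 and 0.0811 at 0.5 µM, 0.142 and 0.0751 at 1 µM). The call at 0.5 µM was also lost without cytarabine replicate 1 or 3 of that dose or FL-Fc-DM1 replicate 1 after it (edgeR adjusted p = 0.11, 0.0909 and 0.0551), and the call at 1 µM without cytarabine replicate 2 or 3 of that dose (0.163 and 0.0971). ATRIP shares its locus with TREX1. The ratio of ATM to ATR in TPM was 2.77 ± 0.375 in control, 4.35 ± 0.0436 in 0.5 µM and 5.08 ± 0.253 in 1 µM cytarabine.

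The mediators that connect ATR to CHEK1 all fell at each dose. TIMELESS and TIPIN, partners in the fork protection complex, fell, at log2 -1.36 ± 0.064 and -1.04 ± 0.14 at 0.5 µM and at -1.28 ± 0.064 and -1.16 ± 0.14 at 1 µM. TIMELESS went from 59.6, 60.7 and 63.6 CPM in control to 23.8, 23.0 and 25.0 CPM in 0.5 µM and 25.3, 26.0 and 24.3 CPM in 1 µM. Its cytarabine groups overlapped each other and lay far below control. TOPBP1, which activates ATR, fell, at log2 -0.73 ± 0.040 and -0.78 ± 0.040, and CLSPN, the adaptor that brings CHEK1 to ATR, at -0.43 ± 0.088 and -0.67 ± 0.090. The adjusted p of these 8 results lay between 3.41e-16 and 0.000111 in the edgeR quasi-likelihood test.

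**Figure D2:**
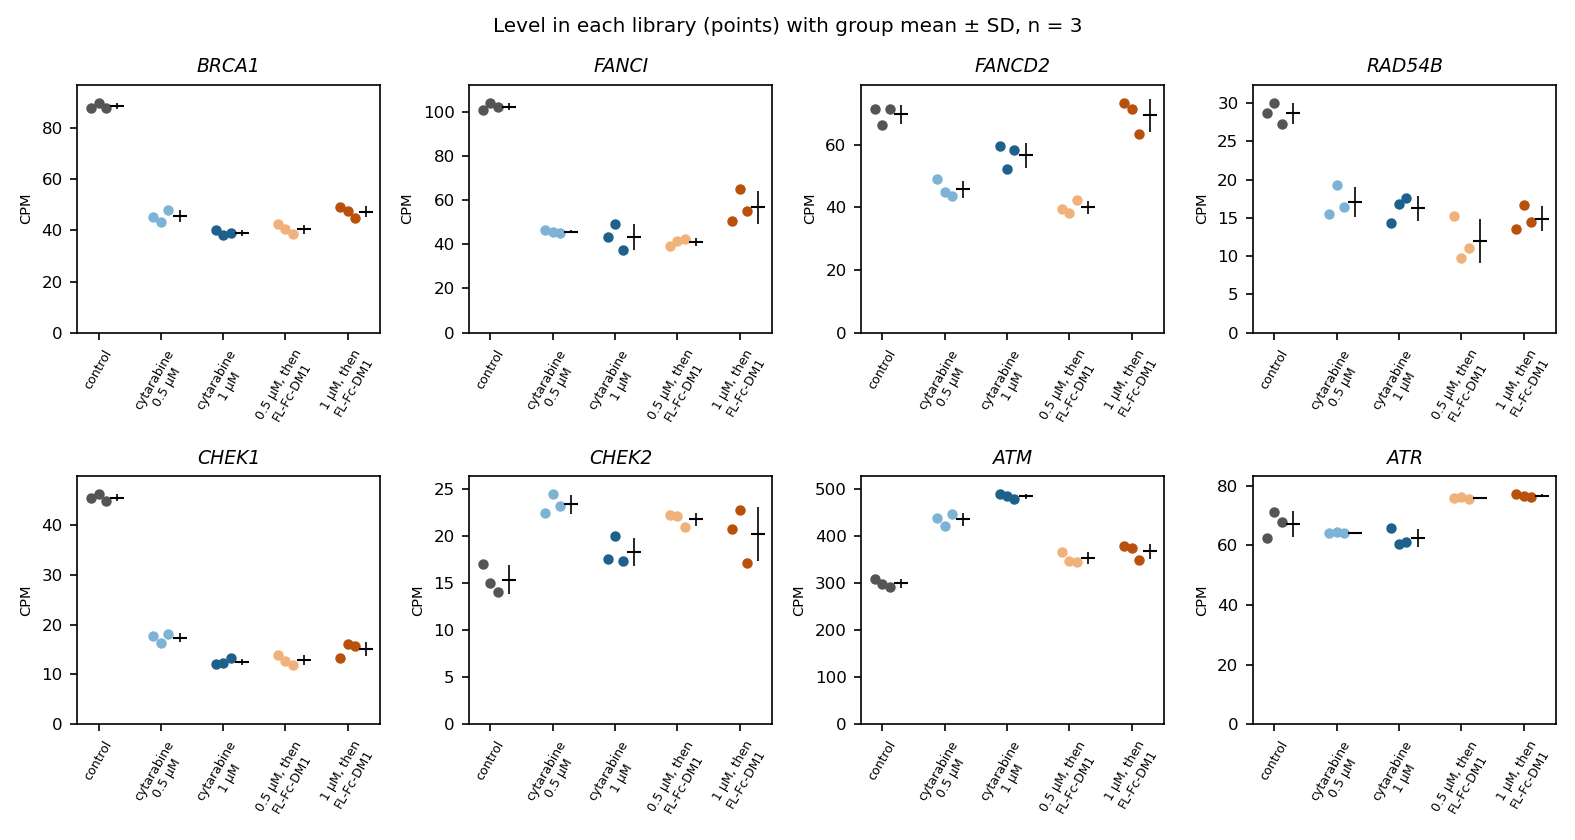
Each panel shows 1 gene, with its level in CPM on a vertical axis that starts at 0 and the 5 groups along the horizontal axis. Points are the 3 libraries of a group, and the black mark beside them is the mean with 1 SD. BRCA1, FANCI and CHEK1 are highest in control, ATM is highest in 1 µM cytarabine (477 to 488 CPM), and FANCD2 after 1 µM cytarabine and FL-Fc-DM1 (63.5 to 73.4 CPM) overlaps control (66.2 to 71.6 CPM).

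All 5 genes of the BRCA1 and BRCA2 complexes fell at each dose. BRCA1, a ubiquitin ligase that steers breaks towards recombination, stood at 88.0, 89.8 and 87.9 CPM in control, 45.3, 43.4 and 47.9 CPM in 0.5 µM and 40.3, 38.1 and 38.8 CPM in 1 µM cytarabine. The 3 groups did not overlap. BRCA1 fell 1.95-fold (log2 -0.96 ± 0.055, edgeR adjusted p = 1.63e-14) and 2.26-fold (log2 -1.18 ± 0.055, edgeR adjusted p = 2.32e-16). BARD1, its obligate partner, was at 29.2, 26.0 and 25.3 CPM in control, 14.9, 14.5 and 15.7 CPM in 0.5 µM and 15.0, 12.9 and 15.5 CPM in 1 µM, at log2 -0.83 ± 0.10 and -0.89 ± 0.10. Every cytarabine library of BARD1 was below every control library, and the doses overlapped. BRIP1, a helicase bound to BRCA1, fell, at log2 -0.83 and -0.97, and BRCA2, a core factor of recombination, at -0.81 and -0.91. PALB2, the bridge between BRCA1 and BRCA2, fell least, at -0.37 and -0.51. The adjusted p of the 10 results lay between 2.32e-16 and 7.17e-05 in the edgeR test.

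The 4 genes of resection and break ends also fell at each dose. RBBP8, which encodes CtIP and starts the trimming of ends, was at 97.5, 98.5 and 92.1 CPM in control, 43.9, 48.1 and 44.3 CPM in 0.5 µM and 44.3, 41.4 and 40.2 CPM in 1 µM. It fell 2.11-fold and 2.28-fold (log2 -1.08 ± 0.067 and -1.19 ± 0.067), with edgeR adjusted p = 9.41e-14 and 1.13e-14. EXO1, the exonuclease of long-range trimming, was at 28.8, 27.1 and 29.6 CPM in control, 15.6, 14.5 and 15.8 CPM in 0.5 µM and 15.4, 11.8 and 12.5 CPM in 1 µM. It fell 1.86-fold and 2.14-fold (log2 -0.90 ± 0.10 and -1.10 ± 0.10), and the control libraries of both genes lay above every cytarabine library. NBN fell, at log2 -0.52 ± 0.040 and -0.64 ± 0.040, and RAD50, the coiled-coil subunit of the same complex, at -0.35 ± 0.057 and -0.24 ± 0.056. RAD50 had the smallest fall of the 4 at each dose, with edgeR adjusted p = 5.47e-06 and 0.00045.

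In strand exchange and joint molecules 6 of 7 genes fell at 0.5 µM and all 7 at 1 µM. XRCC2, a recombination factor, was at 26.4, 28.5 and 26.2 CPM in control, 13.3, 13.2 and 13.8 CPM in 0.5 µM and 13.9, 14.5 and 9.71 CPM in 1 µM. It fell 2.01-fold and 2.12-fold (log2 -1.01 ± 0.11 and -1.08 ± 0.12, edgeR adjusted p = 1.57e-08 and 3.85e-09). RAD54B, a DNA translocase of strand exchange, was at 28.6, 30.0 and 27.3 CPM in control, 15.6, 19.2 and 16.4 CPM in 0.5 µM and 14.4, 16.8 and 17.5 CPM in 1 µM. The doses overlapped for both genes, and no cytarabine library reached the control range. The related translocase RAD54L fell, at log2 -0.64 and -0.66, RAD54B at -0.75 and -0.82, and BLM, the helicase that takes joint molecules apart, at -0.68 and -0.96. RAD51AP1, which stimulates strand pairing, fell at -0.63 and -0.82, and RAD51C, another recombination factor, at -0.37 and -0.42. XRCC3, which pairs with RAD51C, was at log2 -0.15 at 0.5 µM (95% interval -0.35 to 0.06, edgeR adjusted p = 0.158) and fell at -0.25 ± 0.093 at 1 µM (edgeR adjusted p = 0.0188), where its groups still overlapped. XRCC3 overlaps the gene KLC1 and several of its counts are not whole, and without control replicate 3 the call at 1 µM was lost (log2 -0.22, edgeR adjusted p = 0.0643).

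All 8 genes of the 35 that belong to the Fanconi core complex, the ubiquitin ligase for FANCD2 and FANCI, fell at each dose. Their log2 changes ran from -0.85 (FANCC) to -0.31 (FANCL, the catalytic subunit) at 0.5 µM and from -0.80 (FANCE) to -0.24 (FANCL) at 1 µM. FANCC, a subunit that joins FANCE and FANCF, was at 16.2, 16.0 and 16.6 CPM in control, 8.15, 9.23 and 9.69 CPM in 0.5 µM and 9.28, 7.67 and 12.0 CPM in 1 µM. It fell, at log2 -0.85 ± 0.13 (edgeR adjusted p = 2.64e-06) and -0.75 ± 0.13 (edgeR adjusted p = 1.17e-05), and its doses overlapped. FANCM, the translocase that anchors the complex on DNA, was at 18.7, 19.4 and 20.3 CPM in control, 14.9, 12.9 and 13.2 CPM in 0.5 µM and 13.7, 11.5 and 16.2 CPM in 1 µM. It fell, at log2 -0.51 ± 0.12 and -0.50 ± 0.12 (edgeR adjusted p = 0.000548 and 0.000613), and its doses overlapped below the control range. FANCA, FANCB, FANCE, FANCF and FANCG fell at log2 values between -0.48 and -0.72 at 0.5 µM and between -0.49 and -0.80 at 1 µM. On log2(TPM + 1) with limma, FANCL, FANCB and, at 0.5 µM, FANCA and, at 1 µM, FANCM were not called, and without 1 µM replicate 1 FANCL was not called at 1 µM (log2 -0.18, edgeR adjusted p = 0.0779).

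FANCD2 and FANCI, which form 1 clamp, fell by unequal amounts. FANCI stood at 101, 104 and 102 CPM in control, 46.3, 45.5 and 45.1 CPM in 0.5 µM and 43.1, 49.4 and 37.4 CPM in 1 µM. It fell 2.24-fold (log2 -1.16 ± 0.075, edgeR adjusted p = 2.32e-13) and 2.36-fold (log2 -1.24 ± 0.075, edgeR adjusted p = 5.38e-14). FANCD2 stood at 71.6, 66.2 and 71.4 CPM in control, 49.0, 44.8 and 43.7 CPM in 0.5 µM and 59.6, 52.2 and 58.3 CPM in 1 µM, with no overlap between the 3 groups and the lowest values at the lower dose. It fell, at log2 -0.61 ± 0.066 (edgeR adjusted p = 6.56e-09) and -0.30 ± 0.064 (edgeR adjusted p = 0.000178). The ratio of FANCI to FANCD2 in TPM was 2.21 ± 0.162 in control, 1.43 ± 0.0383 in 0.5 µM and 1.47 ± 0.331 in 1 µM cytarabine. Between the doses this ratio does not follow the CPM levels, in which FANCD2 was higher at 1 µM and FANCI was not. In TPM FANCI stood at 27.7, 24.0 and 24.1 in 0.5 µM and at 32.2, 36.8 and 26.9 in 1 µM. Why the measures differ was not tested. FANCI overlaps POLG and some of its counts are not whole.

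The 35 genes were called between the doses of cytarabine about as often as all genes tested, of which 2390 of 12355 were called. Between 1 µM and 0.5 µM 5 of the 35 genes were lower, beside 10.3% of all genes tested, and 2 were higher, beside 9.08%, and the median log2 difference was -0.08. CHEK1 was lower at 1 µM, at log2 -0.48 ± 0.095 (edgeR adjusted p = 0.000677), CHEK2 at -0.35 ± 0.10 (0.0131), BLM at -0.28 ± 0.085 (0.0182), BRCA1 at -0.22 ± 0.060 (0.00998) and NBN at -0.12 ± 0.041 (0.0482). FANCD2 rose by log2 0.31 ± 0.068 (edgeR adjusted p = 0.00171) and ATM by 0.15 ± 0.036 (0.00325). CHEK1 and FANCD2 held these calls under every alternative but a log2 threshold of 1, and NBN lost its call under 13, 11 of which left out 1 library (edgeR adjusted p up to 0.174). Of the 5 lower genes CHEK2 alone had risen at 0.5 µM, and its 1 µM libraries were still above control. CHEK2 was not called without 0.5 µM replicate 2 or 1 µM replicate 1 or 3 (edgeR adjusted p = 0.0665, 0.0567 and 0.052), BLM without 0.5 µM replicate 3 or 1 µM replicate 2 (0.0728 and 0.12), and BRCA1 without 0.5 µM replicate 3 (0.0838). The number of genes that fell was 3 without 0.5 µM replicate 2, 2 without 0.5 µM replicate 3 and 3 without 1 µM replicate 3.

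With FL-Fc-DM1 more of the 35 genes fell than rose after the lower dose of cytarabine, and more rose than fell after the higher dose. After 0.5 µM 11 of the 35 genes fell and 2 rose against cells kept in 0.5 µM cytarabine, where 22.8% of all genes fell and 22.0% rose, and the median log2 change was -0.12. After 1 µM 14 rose and 2 fell against cells kept in 1 µM cytarabine, where 23.5% of all genes rose and 22.2% fell, and the median was 0.17. The medians over all genes tested were -0.0238 and -0.00363. After 0.5 µM the number that fell was 6 without cytarabine replicate 3, 7 without FL-Fc-DM1 replicate 1 and 4 without FL-Fc-DM1 replicate 2 of that dose, and the median was -0.057 without FL-Fc-DM1 replicate 3. The number that rose was 4 without FL-Fc-DM1 replicate 3 of the higher dose, which enters that comparison only through the shared fit. No gene of the 35 was called with a change of at least 2-fold at either dose, beside 3.17% of all genes after 0.5 µM and 4.17% after 1 µM. These comparisons share no library with each other, but each shares its cytarabine libraries with the comparison against control.

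**Figure D3:**
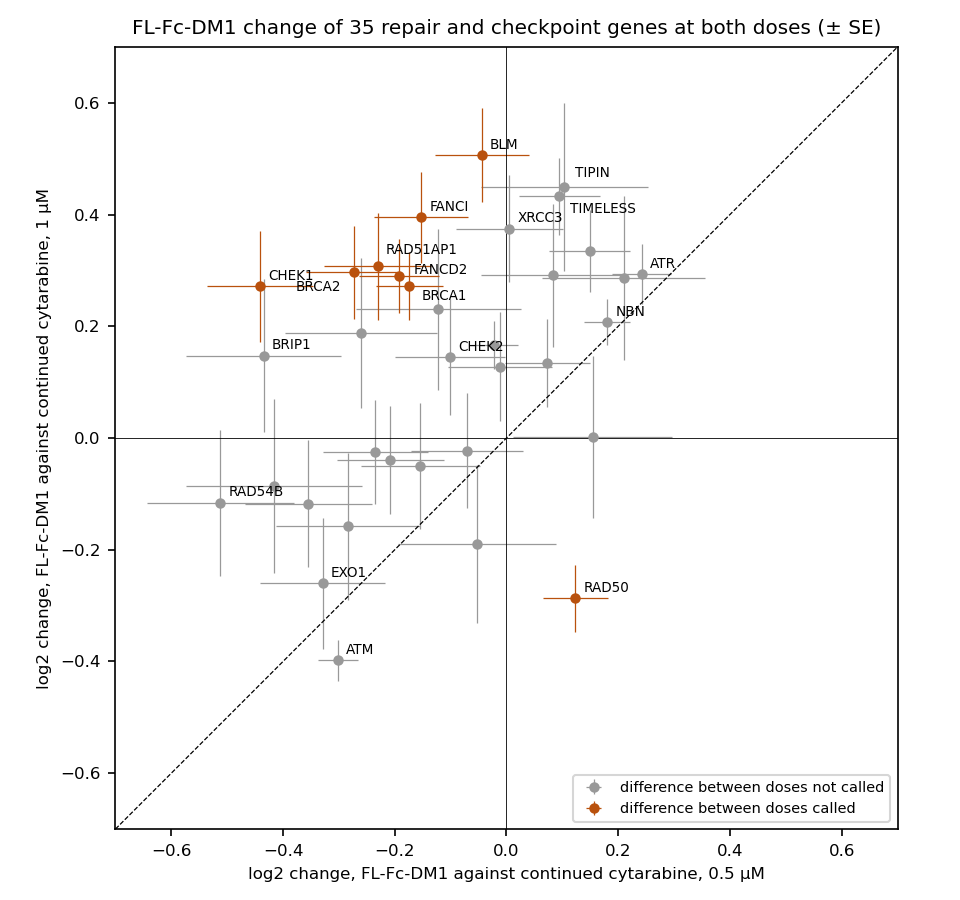
Each point is 1 of the 35 genes, with its log2 change between FL-Fc-DM1 and continued cytarabine at 0.5 µM on the horizontal axis and at 1 µM on the vertical axis, bars of 1 standard error and a dashed line of equal change. Orange points mark the 8 genes whose changes differed between the doses at an adjusted p under 0.05. There are 31 points above the line, and CHEK1 (-0.44 and 0.27) lies far from it, while ATM (-0.30 and -0.40), NBN (0.18 and 0.21) and ATR (0.24 and 0.29) lie near it.

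BRCA1, BRCA2, FANCD2 and CHEK1 were called in opposite directions, lower with FL-Fc-DM1 after 0.5 µM and higher after 1 µM. CHEK1 was at 13.9, 12.7 and 11.9 CPM after 0.5 µM, below the 17.8, 16.3 and 18.0 CPM of continued cytarabine, and at 13.4, 16.1 and 15.7 CPM after 1 µM, above 12.0, 12.2 and 13.3 CPM. The change was log2 -0.44 ± 0.10 after 0.5 µM (edgeR adjusted p = 0.0005) and 0.27 ± 0.10 after 1 µM (edgeR adjusted p = 0.0273). The rise after 1 µM was lost under 6 alternatives, 4 of which left out cytarabine replicate 1 or 2 or FL-Fc-DM1 replicate 2 or 3 of that dose (edgeR adjusted p = 0.0822, 0.0594, 0.108 and 0.0735). BRCA1 was at 42.3, 40.3 and 38.6 CPM after 0.5 µM and 49.1, 47.8 and 44.8 CPM after 1 µM. Neither group overlapped its cytarabine group, and the changes were log2 -0.17 ± 0.060 (edgeR adjusted p = 0.0207) and 0.27 ± 0.061 (edgeR adjusted p = 0.00065). The BRCA1 fall was lost under 6 alternatives, 3 of which left out cytarabine replicate 3 or FL-Fc-DM1 replicate 2 or 3 of that dose (edgeR adjusted p = 0.179, 0.0825 and 0.159). BRCA2 changed by log2 -0.27 ± 0.085 (edgeR adjusted p = 0.0101) and 0.30 ± 0.083 (edgeR adjusted p = 0.0049), with overlapping groups after 1 µM. Without cytarabine replicate 3 of the lower dose the BRCA2 fall was not called (edgeR adjusted p = 0.0571).

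FANCD2 was at 39.6, 38.2 and 42.4 CPM where FL-Fc-DM1 followed 0.5 µM and at 73.4, 71.5 and 63.5 CPM where it followed 1 µM. The latter group overlapped untreated cells and lay above both cytarabine groups. FANCD2 fell, at log2 -0.19 ± 0.071 after 0.5 µM (edgeR adjusted p = 0.0307) and rose by 0.29 ± 0.066 after 1 µM (edgeR adjusted p = 0.000801). The fall was lost under 8 alternatives, 7 of which left out 1 library. The edgeR adjusted p was 0.165 without cytarabine replicate 1 and 0.182 without FL-Fc-DM1 replicate 2 of the lower dose, and between 0.0502 and 0.079 without any 1 of control replicates 1 and 3, cytarabine replicate 2 and FL-Fc-DM1 replicate 1 of the lower dose or cytarabine replicate 1 of the higher dose. FANCI was at 39.2, 41.2 and 42.6 CPM after 0.5 µM, where log2 -0.15 ± 0.084 was not called, and at 50.5, 65.0 and 55.0 CPM after 1 µM, where it rose by 0.40 ± 0.082 (edgeR adjusted p = 0.000301). All 3 libraries after 1 µM were above the cytarabine libraries of that dose. In TPM the ratio of FANCI to FANCD2 was 1.55 ± 0.146 and 1.68 ± 0.238 in the FL-Fc-DM1 groups. These ratios do not follow the CPM levels, in which FANCD2 differed more between the FL-Fc-DM1 groups than FANCI.

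Genes lower with FL-Fc-DM1 after 0.5 µM and not called after 1 µM were BARD1, BRIP1, EXO1, RAD54L, RAD54B and FANCL. BARD1 was at 12.4, 10.9 and 12.0 CPM after 0.5 µM and 13.7, 15.0 and 11.3 CPM after 1 µM, with log2 changes of -0.35 ± 0.11 (edgeR adjusted p = 0.0128) and -0.12 ± 0.11 (0.422). EXO1 was at 11.2, 12.3 and 13.0 CPM and 12.0, 9.73 and 11.7 CPM, with log2 changes of -0.33 ± 0.11 (edgeR adjusted p = 0.0189) and -0.26 ± 0.12 (0.0735). RAD54B was at 15.2, 9.73 and 11.0 CPM and 13.6, 16.7 and 14.4 CPM, with log2 changes of -0.51 ± 0.13 (edgeR adjusted p = 0.00252) and -0.12 ± 0.13 (0.499). RAD54B after 0.5 µM lay below its cytarabine libraries, and its replicate 1 stood apart above the other two. None of these 6 genes had a called difference between the doses, so they are not shown to respond differently. Without FL-Fc-DM1 replicate 2 of the lower dose BARD1, BRIP1, EXO1 and RAD54L were no longer called (edgeR adjusted p = 0.082, 0.0833, 0.0567 and 0.0897), and without cytarabine replicate 3 of that dose BARD1, EXO1 and RAD54L were not (0.0658, 0.0788 and 0.205). Without FL-Fc-DM1 replicate 1 of that dose EXO1 and RAD54L were not called either (0.0887 and 0.148), and without cytarabine replicate 1 of that dose EXO1 was not (0.0561). RAD54B kept its call under every alternative but a log2 threshold of 1.

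Genes higher with FL-Fc-DM1 after 1 µM and not called after 0.5 µM were RBBP8, RAD51AP1, XRCC3, BLM, FANCI, TOPBP1, TIMELESS and TIPIN. Only RAD51AP1, BLM and FANCI of these had a called difference between the doses. RBBP8, XRCC3, TOPBP1, TIMELESS and TIPIN are thus not shown to respond differently. BLM rose by log2 0.51 ± 0.085 (edgeR adjusted p = 2.45e-05). Its FL-Fc-DM1 libraries were at 62.0, 48.5 and 45.5 CPM, with replicate 1 apart above the other two, and without that library the change was log2 0.36 and still called. TIMELESS, at 36.1, 32.8 and 33.3 CPM, rose by log2 0.43 ± 0.070 (1.44e-05), TIPIN by 0.45 ± 0.15 (0.0169) and TOPBP1 by 0.17 ± 0.043 (0.00249). RBBP8 was at 49.6, 52.9 and 48.6 CPM after 0.5 µM and 51.1, 60.4 and 47.4 CPM after 1 µM, above its cytarabine libraries in both cases. Its change was log2 0.15 ± 0.072 after 0.5 µM (edgeR adjusted p = 0.0964) and 0.33 ± 0.073 after 1 µM (edgeR adjusted p = 0.000548). RAD51AP1 rose by log2 0.31 and XRCC3 by 0.37. The RAD51AP1 and TIPIN rises were lost without 1 µM cytarabine replicate 3 (edgeR adjusted p = 0.0703 and 0.117), and TIPIN also without FL-Fc-DM1 replicate 3 of that dose (0.0512).

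ATM, NBN and ATR moved the same way after both doses. ATM fell with FL-Fc-DM1 to 366, 347 and 344 CPM after 0.5 µM (log2 -0.30 ± 0.037, edgeR adjusted p = 2.3e-07) and 377, 374 and 349 CPM after 1 µM (log2 -0.40 ± 0.037, edgeR adjusted p = 2.15e-09). Both groups lay between control and cytarabine without overlap. ATR rose by log2 0.24 ± 0.053 (edgeR adjusted p = 0.000517) and 0.29 ± 0.053 (6.55e-05), from 64.0, 64.5 and 64.0 CPM to 75.7, 76.2 and 75.7 CPM after 0.5 µM and from 65.8, 60.3 and 61.0 CPM to 77.0, 76.5 and 76.1 CPM after 1 µM. The 6 FL-Fc-DM1 libraries of ATR were above every control and cytarabine library. NBN rose by log2 0.18 ± 0.041 (0.000799) and 0.21 ± 0.042 (0.000203). RAD50, its partner, was at 0.12 ± 0.058 after 0.5 µM, which was not called, and fell at -0.29 ± 0.060 after 1 µM (edgeR adjusted p = 0.000331).

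The other 13 genes were called at neither dose. CHEK2 was at 22.1, 22.1 and 21.0 CPM and 20.7, 22.7 and 17.1 CPM, with log2 changes of -0.10 (95% interval -0.32 to 0.12) and 0.15 (-0.09 to 0.38). XRCC2 was at 12.2, 10.8 and 10.2 CPM and 12.7, 11.5 and 10.0 CPM, with log2 changes of -0.28 (-0.57 to 0.00) and -0.16 (-0.45 to 0.13). Of the Fanconi core complex genes described here FANCL alone was called, at log2 -0.23 ± 0.094 after 0.5 µM (edgeR adjusted p = 0.0449). That call was ended by 14 alternatives, 11 of which left out 1 library (edgeR adjusted p up to 0.178, without cytarabine replicate 3 of that dose). FANCC was at 10.8, 9.23 and 10.1 CPM and 9.25, 8.76 and 11.0 CPM (log2 0.15, interval -0.16 to 0.47, and 0.00, interval -0.32 to 0.32). FANCM was at 15.6, 13.6 and 14.3 CPM and 20.2, 16.4 and 14.0 CPM, and its log2 change after 1 µM was 0.29 ± 0.13 (edgeR adjusted p = 0.0651). The intervals of these genes leave room for changes as large as those called in other genes. PALB2, RAD51C, FANCA, FANCB, FANCE, FANCF, FANCG, ATRIP and CLSPN were the remaining genes, with log2 changes from -0.26 (FANCE) to 0.21 (ATRIP) after 0.5 µM and from -0.19 (FANCB) to 0.29 (ATRIP) after 1 µM.

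The difference between the doses was itself tested. The FL-Fc-DM1 change was larger after 1 µM than after 0.5 µM in 7 of the 35 genes, beside 2.14% of all genes tested, and smaller in 1, beside 0.931%. The 7 genes were CHEK1 (log2 difference 0.71 ± 0.14, edgeR interaction test, adjusted p = 0.00267), BRCA2 (0.57 ± 0.12, 0.00547), BLM (0.55 ± 0.12, 0.00802), FANCI (0.55 ± 0.12, 0.00698), RAD51AP1 (0.54 ± 0.14, 0.0243), FANCD2 (0.48 ± 0.10, 0.00417) and BRCA1 (0.45 ± 0.085, 0.00238). RAD50 differed the other way (-0.41 ± 0.084, 0.00457). These differences also take in the gap between the cytarabine groups. In that gap CHEK1, BLM and BRCA1 were called lower at 1 µM and FANCD2 higher. The estimate was above 0 in 31 of the 35 genes and the median was 0.21, beside 0.01 over all genes. CHEK1, FANCD2 and FANCI were called under every alternative but a log2 threshold of 1. BRCA1, BRCA2, BLM and RAD50 were not called with limma on log2(TPM + 1) (adjusted p = 0.0578, 0.125, 0.0833 and 0.0642) and otherwise lost their calls only under that threshold. RAD51AP1 was lost under 9, 7 of which left out 1 library, with an edgeR adjusted p up to 0.0976 (0.5 µM cytarabine replicate 2 left out). The other 6 were 0.5 µM cytarabine replicate 1, 1 µM cytarabine replicates 1 and 3, FL-Fc-DM1 replicates 2 and 3 after 0.5 µM and its replicate 3 after 1 µM.

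Against untreated cells most of the genes stayed low after FL-Fc-DM1. After 0.5 µM 30 of the 35 were lower and 3 higher, beside 34.2% and 35% of all genes, and after 1 µM 28 were lower and 3 higher, beside 35.4% and 35.8%. At least 2-fold lower were 11 genes after 0.5 µM, beside 6.84% of all genes, and 4 after 1 µM, beside 6.63%. CHEK1 was lowest in both, at log2 -1.83 ± 0.086 and -1.59 ± 0.086, and EXO1 followed after 1 µM at -1.36 ± 0.11. The higher genes were ATM (log2 0.24 ± 0.037 and 0.30 ± 0.037), CHEK2 (0.50 ± 0.10 and 0.40 ± 0.10) and ATR (0.18 ± 0.051 and 0.19 ± 0.052), with edgeR adjusted p from 8.77e-08 (ATM) to 0.00327 (ATR). Without control replicate 1 the ATR calls were lost (edgeR adjusted p = 0.0644 and 0.0666). Apart from a log2 threshold of 1, PALB2, FANCA and FANCB lost their calls under some alternative after both doses. RAD54L, FANCC, FANCL and CHEK2 lost theirs after 1 µM. The highest adjusted p among these was 0.416, for RAD54L after 1 µM with limma on log2(TPM + 1). FANCD2 was at log2 -0.01 ± 0.064 after 1 µM, with a 95% interval of -0.15 to 0.14, and at -0.80 ± 0.067 after 0.5 µM (edgeR adjusted p = 6.1e-11). FANCM, XRCC3 and ATRIP were the others not called after 1 µM, at log2 -0.21, 0.13 and -0.04. The CHEK2 to CHEK1 ratio in TPM was 2.17 ± 0.125 after 0.5 µM and 1.40 ± 0.230 after 1 µM, and the ATM to ATR ratio was 2.87 ± 0.189 and 3.11 ± 0.249, beside 2.77 ± 0.375 in control.

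The FL-Fc-DM1 groups also differed directly. After 1 µM 11 of the 35 genes were higher than after 0.5 µM, beside 14.3% of all genes, and 1 was lower, beside 14.0%. FANCD2 had the largest difference of the 35, at log2 0.79 ± 0.069 (1.73-fold, edgeR adjusted p = 2.58e-09), followed by FANCI at 0.47 ± 0.083 (0.000109), BRCA2 at 0.47 ± 0.085 (0.000159), BRIP1 at 0.45 ± 0.14 (0.019) and TIMELESS at 0.41 ± 0.070 (6.79e-05). RAD51AP1, FANCL, BLM, XRCC3, BRCA1 and TOPBP1 were higher by between log2 0.15 (TOPBP1) and 0.34 (RAD51AP1). RAD50 was lower, at log2 -0.30 ± 0.060 (edgeR adjusted p = 0.00042). CHEK1 was not called between the FL-Fc-DM1 groups, though it was called under some alternatives. The number higher was 7 without FL-Fc-DM1 replicate 2 of the lower dose and 6 without its replicate 3. Leaving out 1 library ended the calls of BRIP1, FANCL, BLM, XRCC3, BRCA1 and TOPBP1, with edgeR adjusted p up to 0.23 (BLM without FL-Fc-DM1 replicate 1 of the higher dose).

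Other genes of the same pathways moved less uniformly under cytarabine. Over all genes tested 35.2% fell and 38.0% rose at 0.5 µM, and 36.6% fell and 39.3% rose at 1 µM. Of 50 further recombination and Fanconi genes 28 fell and 7 rose at 0.5 µM, and 29 fell and 8 rose at 1 µM, with medians of -0.25 and -0.27. USP1, the enzyme that removes ubiquitin from FANCD2, fell, at log2 -1.46 ± 0.058 and -1.58 ± 0.059. EME2, a nuclease partner, rose by 1.14 ± 0.090 and 1.31 ± 0.089, and SPIDR, a scaffold of recombination, rose by 0.83 ± 0.040 and 0.87 ± 0.040. Of 25 further checkpoint genes 19 fell and 1 rose at 0.5 µM, and 18 fell and 2 rose at 1 µM. WEE1, a kinase that holds back entry into mitosis, fell, at log2 -1.23 ± 0.12 and -1.32 ± 0.12, and HUS1, a subunit of the checkpoint clamp, rose by 0.33 ± 0.086 and 0.36 ± 0.085. End joining, the repair route that needs no template, was mixed, with 6 of 10 genes lower and 3 higher at 0.5 µM and 5 lower and 3 higher at 1 µM. LIG4, its ligase, rose by log2 0.56 ± 0.046 and 0.62 ± 0.046 while PRKDC, the catalytic subunit of DNA-PK, was at -0.73 ± 0.031 and -0.84 ± 0.031. These 7 genes were picked for naming after their values were seen, and their edgeR adjusted p ran up to 0.00111 (HUS1 at 0.5 µM).

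Genes of cell division moved in the same comparisons. Over all genes tested 35.2% fell and 38.0% rose at 0.5 µM cytarabine, and 36.6% fell and 39.3% rose at 1 µM. With FL-Fc-DM1 22.0% rose and 22.8% fell after 0.5 µM, and 23.5% rose and 22.2% fell after 1 µM. In the interaction test 2.14% of all genes had a larger change after 1 µM. Of 34 replication genes 28 fell and 1 rose at 0.5 µM and 31 fell and 1 rose at 1 µM, and of 20 mitotic genes all 20 fell at each dose. With FL-Fc-DM1 after 0.5 µM 5 replication genes rose and 3 fell, and 12 mitotic genes rose and 0 fell. After 1 µM 20 replication genes rose and 0 fell, and all 20 mitotic genes rose. The change with FL-Fc-DM1 was larger after 1 µM than after 0.5 µM in 6 of the replication genes and 19 of the mitotic genes by the edgeR interaction test, with median log2 differences of 0.28 and 0.75, beside 0.21 for the 35 genes. MKI67, a marker of dividing cells, was at log2 -2.44 ± 0.047 and -2.65 ± 0.048 against control in cytarabine, and against continued cytarabine it was higher with FL-Fc-DM1 by 0.45 ± 0.052 after 0.5 µM and 0.85 ± 0.052 after 1 µM. The part of a changed share of dividing cells in the values of the 35 genes was not tested.

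**Figure D4:**
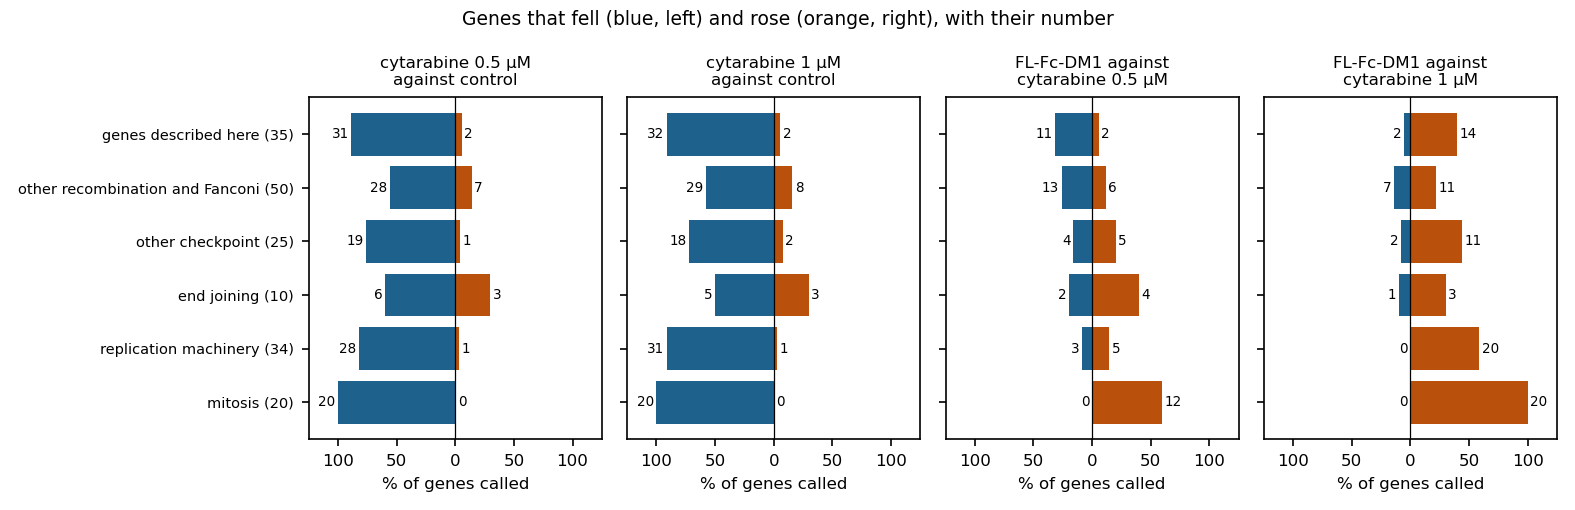
For the 35 genes described here and 5 other lists (sizes in brackets), bars give the percentage of the list that fell (left, blue) and rose (right, orange) in each of 4 comparisons, with the number of genes at the end of each bar. In the right panel, FL-Fc-DM1 after 1 µM cytarabine, 14 of the 35 genes rose and 2 fell, and all 20 mitotic genes rose.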

How the data were processed

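RNA of 15 Molm-13 libraries was measured by poly(A) RNA-seq. The authors' deposited table gives an estimated count and a TPM value per gene and library, per the file headers. Reads were processed with fastp 0.18.0 and StringTie 1.3.1, and HISAT2, edgeR and DESeq2 are also named, per the submitters' processing notes, which give neither role nor order. Genome build, annotation, counting method and strand setting were not given in the sources used here. Of 20375 genes, 645 have no symbol. Of the 35 genes, 13 have a count that is not whole (tolerance 0.01) in some library, and 22 overlap another RefSeq gene.

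The estimated counts were rounded to whole numbers. Genes were kept by edgeR's filterByExpr (minimum count 10, minimum total 15), which left 12355. All 5 groups entered 1 quasi-likelihood fit with TMM scaling (R 4.3.3, edgeR 4.0.16). The fit had 10 residual degrees of freedom, and the common coefficient of biological variation was 0.0433. Each p-value was adjusted by Benjamini-Hochberg over all 12355 genes, with a threshold of 0.05. Errors of log2 changes are standard errors and intervals cover 95%. With 3 libraries against 3 an exact permutation test of 1 gene cannot go below p = 0.1, so none was used.

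The alternatives were no filter on low counts, DESeq2 (1.42.0) and its size factors, limma-voom (3.58.1), limma on log2(TPM + 1), only the groups compared, a log2 threshold of 1, a replicate block and each library left out in turn. All 35 genes are named by role. Values per library are given for BRCA1, FANCD2, CHEK1 and ATM, for the genes of each of the 6 role groups with the largest mean change under cytarabine and under FL-Fc-DM1, and for genes called against the majority, with others added to show a comparison. The 35 genes and the other lists were drawn up by function and symbol, with earlier results of these data known. Sequences are from RefSeq (GRCh38.p14), where 32 of the 35 genes matched by symbol.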

Additional observations from a re-analysis of the deposited data

Results flagged for a closer look

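For 8 of the 35 genes the change with FL-Fc-DM1 differed between the doses of cytarabine it followed, by the edgeR interaction test over all genes with Benjamini-Hochberg adjustment. The value is the log2 change after 1 µM minus that after 0.5 µM, so it also takes in the gap between the cytarabine groups. It was 0.71 for CHEK1, 0.57 for BRCA2, 0.48 for FANCD2 and 0.45 for BRCA1, each of which was called lower after 0.5 µM and higher after 1 µM. It was 0.55 for BLM, 0.55 for FANCI and 0.54 for RAD51AP1, which were called higher after 1 µM and not called after 0.5 µM. It was -0.41 for RAD50, which was called lower after 1 µM alone. CHEK1, FANCD2 and FANCI kept this call under each alternative but a log2 threshold of 1. With limma on log2(TPM + 1) BRCA1, BRCA2, BLM and RAD50 were not called (adjusted p = 0.0578, 0.125, 0.0833 and 0.0642), and RAD51AP1 was lost under 9 alternatives. Groups of 3 libraries are too small for a test of single outlying libraries.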

How the results depend on the processing

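No result of the 35 genes changed sign with a call under any alternative. The number that rose at 1 µM cytarabine was 1 in place of 2 without the filter, with DESeq2, in a fit of only the groups compared and on log2(TPM + 1), and 1 to 2 with 1 library left out. Between the cytarabine doses 1 rose and 2 fell on log2(TPM + 1), which called 1354 genes in all. With FL-Fc-DM1 after 0.5 µM 4 rose without the filter, with only the groups compared and with voom, and 5 fell on log2(TPM + 1). In the interaction 3 rose and 0 fell on log2(TPM + 1), where limma called 142 genes in all, and on that scale 1 was higher than control where FL-Fc-DM1 followed 1 µM. Between the FL-Fc-DM1 groups 7 rose in a fit of only those groups. Under a log2 threshold of 1 none rose, and 6 and 8 fell at the cytarabine doses, 11 and 4 in the FL-Fc-DM1 groups against control and 0 in each of the other 5 comparisons. With 1 library left out the counts ranged from 30 to 32 and 30 to 33 (falls at 0.5 and 1 µM cytarabine), 2 to 3 and 2 to 7 (rises and falls between doses), 2 to 4 and 4 to 13 (FL-Fc-DM1 after 0.5 µM), 13 to 14 and 2 to 3 (after 1 µM), 6 to 7 (rises in the interaction), 2 to 3 (rises over control with FL-Fc-DM1 at either dose) and 6 to 12 and 1 to 2 (between FL-Fc-DM1 groups). The cause of these differences was not tested. Replicate numbers did not pair the libraries: the correlation of same-numbered libraries lay between -0.0624 and 0.0801 over 30 pairs, and 4 of 15 libraries correlated best with their own number. The replicate block moved 1 result of the 35 genes across the threshold, a call it added (RAD51AP1 after 0.5 µM, log2 -0.226, edgeR adjusted p = 0.0481). Low counts limit RAD54L, FANCC, FANCB and other genes near 10 CPM. Of the 35 genes RAD54L had the largest standard error in the interaction (0.222).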
